A study of Mus musculus with 8 samples.

Results

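Omp, Cnga2, Gap43, Ncam1, Uchl1 and Tubb3 are genes by which olfactory neurons are placed along their maturation, and their signals were followed in mouse olfactory mucosa after the removal of both olfactory bulbs. Their probe sets were all those whose platform symbol was 1 of these 6 genes, and the genes themselves were picked with earlier results of these arrays known. They are 6 of 8252 genes that had a probe set of their own, and they hold 10 of the 12488 probe sets on the array. Of these 10, 9 were among the 8150 tested, for which 2 or more of the 8 arrays had to exceed an intensity of 362.7, the 40th percentile of the table. No member passed an adjusted p of 0.05 in any of the 7 comparisons made, and neither did any other probe set. The values below therefore describe these arrays, and none of the differences is a call.

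Olfactory neurons are replaced throughout life from basal cells of the epithelium. A newly formed neuron makes GAP43 while it extends its axon towards the bulb, and as it matures it loses GAP43 and gains OMP and the channel that carries the odour response. Removal of the bulb takes away the target of these axons, after which existing neurons die and new ones are formed, so the balance of immature and mature genes is a common reading of this tissue.

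RNA of olfactory mucosa, the lining of the nose in which these neurons lie, was measured on 8 single-colour arrays, and every array came from mice with bilateral bulbectomy. The 4 groups of 2 arrays were C57BL/6 wild-type mice injected with carrier, wild-type mice injected with CCL3, Ccl3-/- mice injected with carrier, and Ccl3-/- mice injected with CCL3. CCL3, also called MIP-1a, is a chemokine that draws macrophages, and the title of the series asks about their recruitment to the epithelium. The labels give neither the age of the mice nor the dose, the times of injection or the interval after surgery. All groups share the operation, so the arrays compare genotypes and injections after target removal and hold no measure of the removal itself. The labels do not say whether replicates came from separate mice, so a p-value here weighs a difference against the spread of these arrays alone, and that spread may be technical. In bulk mucosa, fewer neurons and less RNA per neuron cannot be told apart.

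The targeted gene and the RNA were checked first. The Ccl3 probe set gave 727 to 812 on the 4 arrays labelled Ccl3-/- and 159 to 386.5 on the wild-type arrays, which goes against the genotype labels unless the probe set lies outside the deleted part. The labels do not say which part was deleted, so every genotype direction below rests on the labels alone. Wild-type carrier array 1 stood apart from the others. Its ratio of 3' to 5' Gapdh signal, a measure of RNA integrity, was 2.59 against 0.755 to 1.31 on the other arrays, and its median correlation with them was 0.903 against 0.930 to 0.949. The same ratio for beta-actin did not set it apart, at 1.58 in a range of 1.58 to 2.17. The part of RNA quality in the results was not tested.

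Omp encodes olfactory marker protein, a small cytoplasmic protein of mature olfactory neurons, and its signal stood above the filter on every array. Its intensity was 4251 and 12949 on the wild-type carrier arrays, 21779 and 8657 on the carrier arrays labelled Ccl3-/-, 12511.5 and 14771 on the wild-type CCL3 arrays, and 16002 and 19808 on the CCL3 arrays labelled Ccl3-/-. The lowest and the highest of the 8 values, which lie 5.12-fold apart, both came from carrier arrays, and the 2 carrier groups overlapped. After CCL3 the groups did not overlap, and both arrays labelled Ccl3-/- were the higher. After carrier, Omp differed by 0.88 ± 0.52 (SE) on the log2 scale between the genotypes, higher in the arrays labelled Ccl3-/-, with a 95% confidence interval of -0.28 to 2.03 and an adjusted p of 0.518 in limma. That value was 0.09 without wild-type carrier array 1, 0.22 without carrier array 1 labelled Ccl3-/-, 1.54 without carrier array 2 labelled Ccl3-/- and 1.67 without wild-type carrier array 2. The difference between CCL3 and carrier in wild-type mice was 0.86 ± 0.52, with an adjusted p of 0.911. It too rested on the carrier arrays, at 0.07 without wild-type carrier array 1 and 1.66 without array 2.

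Cnga2 encodes the main subunit of the cyclic nucleotide-gated channel that opens when an odorant receptor is stimulated. It was read by a pair of probe sets, the brighter ending in _at and the other in _f_at. The brighter one gave 3207.5 and 2600 on the wild-type carrier arrays, 6823 and 3845 on the carrier arrays labelled Ccl3-/-, 5123 and 3137 on the wild-type CCL3 arrays, and 3912 and 5304 on the CCL3 arrays labelled Ccl3-/-. The carrier groups did not overlap, with both arrays labelled Ccl3-/- the higher, and the CCL3 groups did. The difference after carrier was 0.81 ± 0.35 (SE), with an unadjusted p of 0.0437 and an adjusted p of 0.429 in limma. It ranged from 0.40 without carrier array 1 labelled Ccl3-/- to 1.21 without array 2 of that group. The _f_at probe set gave 3683 and 2029 on the wild-type carrier arrays and 4508.5 and 1701 on the carrier arrays labelled Ccl3-/-. Those groups overlapped and the difference was 0.02 ± 0.45, so the Cnga2 probe sets disagreed on this comparison. A probe set whose name ends in _f_at or _s_at can share sequence with related transcripts, which the files do not resolve.

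The start of Cnga2 is shown because Cnga2 and Omp are textbook targets of the EBF factors, also called Olf-1, which bind a palindrome in olfactory neuron genes. The RefSeq window of GRCm38.p6, chrX:71991599-71991898 on the plus strand, runs from 250 bases before the start to 50 after it. The capitals mark the only match to CCCNNGGG, a palindrome that reads alike on both strands.
Cnga2: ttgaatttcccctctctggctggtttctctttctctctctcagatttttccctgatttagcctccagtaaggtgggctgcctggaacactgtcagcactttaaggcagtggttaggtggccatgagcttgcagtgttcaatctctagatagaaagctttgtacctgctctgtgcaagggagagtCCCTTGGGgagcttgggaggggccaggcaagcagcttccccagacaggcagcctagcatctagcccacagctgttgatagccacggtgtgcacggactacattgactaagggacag
The match lies 66 to 59 bases upstream of the start. These letters occur in 4491 of the 32851 promoter windows of that table (13.7%), so the match is a description and no evidence of binding. Of the 6 genes, 3 had a window there, and neither the Uchl1 nor the Tubb3 window held the letters.

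**Figure D1:**
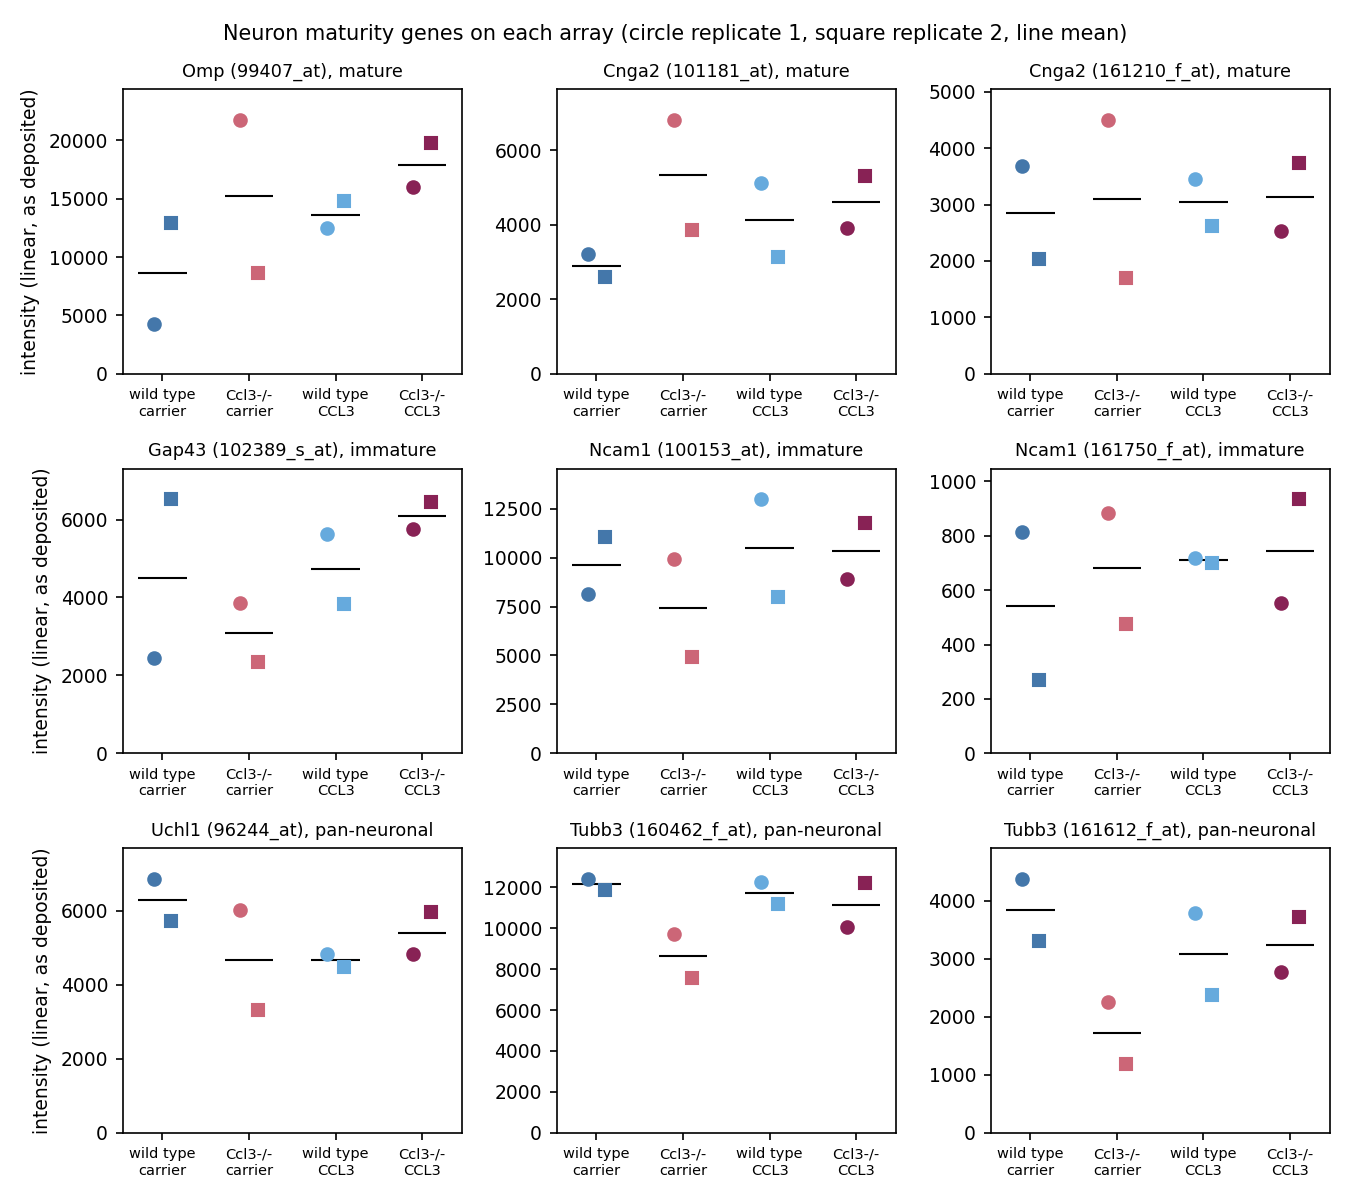
Intensity on the deposited linear scale (y axis, 1 panel for each tested probe set) of the 6 genes on the 8 arrays, grouped by genotype label and injection; points are single arrays and short lines are means of 2 arrays. The wild-type carrier value of 4251 for Omp and the low values of carrier array 2 labelled Ccl3-/- for Tubb3 and Gap43 can be seen.

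Gap43 encodes a membrane protein of growing axons that marks immature olfactory neurons. It was read by a single probe set, ending in _s_at, so related transcripts may enter its signal. Its intensity was 2446 and 6527 on the wild-type carrier arrays, 3854 and 2335 on the carrier arrays labelled Ccl3-/-, 5618 and 3823 on the wild-type CCL3 arrays, and 5760 and 6443 on the CCL3 arrays labelled Ccl3-/-. In mice labelled Ccl3-/-, both CCL3 arrays lay above both carrier arrays, and in wild-type mice the injections overlapped. The CCL3 difference in mice labelled Ccl3-/- was 1.00 ± 0.43 (SE) on the log2 scale, with an unadjusted p of 0.0444 and an adjusted p of 0.940 in limma. It was 0.65 without carrier array 2 labelled Ccl3-/- and 1.35 without array 1. In wild-type mice the same difference was 0.21 ± 0.43, and the test of the difference between the genotypes gave 0.79 ± 0.61, which did not pass. That value was 0.10 without wild-type carrier array 2 and 1.48 without array 1. Between the genotypes after carrier, Gap43 differed by -0.40 ± 0.43, lower in the arrays labelled Ccl3-/-. This difference was 0.29, with the sign turned, without wild-type carrier array 2, -0.06 without carrier array 2 labelled Ccl3-/-, -0.75 without array 1 of that group and -1.09 without wild-type carrier array 1.

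Ncam1 encodes a neural cell adhesion molecule carried by olfactory neurons and their axons. The brightest of its 3 probe sets gave 8159.5 and 11077 on the wild-type carrier arrays, 9952 and 4920.4 on the carrier arrays labelled Ccl3-/-, 13001 and 8007 on the wild-type CCL3 arrays, and 8921 and 11793 on the CCL3 arrays labelled Ccl3-/-. Every pair of groups compared overlapped. After carrier the genotype difference was -0.44 ± 0.37 (SE), with an adjusted p of 0.638. It was 0.07 without carrier array 2 labelled Ccl3-/-, -0.94 without array 1 of that group, -0.22 without wild-type carrier array 2 and -0.65 without array 1. The _f_at probe set, with 269.9 to 935 on the 8 arrays, gave a value of the other sign for the same comparison, 0.37 ± 0.45. The remaining probe set lay between 29.7 and 155.8 on all arrays and was not tested.

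Uchl1 encodes a ubiquitin hydrolase abundant in neurons, known as PGP9.5, and marks olfactory neurons at every stage. Its intensity was 6874 and 5733 on the wild-type carrier arrays, 6016 and 3311 on the carrier arrays labelled Ccl3-/-, 4843 and 4482 on the wild-type CCL3 arrays, and 4834 and 5964 on the CCL3 arrays labelled Ccl3-/-. Both wild-type CCL3 arrays lay below both wild-type carrier arrays, a difference of -0.42 ± 0.31 (SE) on the log2 scale that did not pass, and the other 3 pairs of groups overlapped. The genotype difference after carrier was -0.48 ± 0.31, with an adjusted p of 0.540 in limma, and it was -0.06 without carrier array 2 labelled Ccl3-/- and -0.90 without array 1.

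Tubb3 encodes a neuronal beta-tubulin of the cytoskeleton that is made from the immature stage on. It was read by a pair of probe sets, both ending in _f_at, so other tubulin transcripts may enter their signal. The dimmer one gave 4382 and 3303 on the wild-type carrier arrays, 2261.5 and 1193 on the carrier arrays labelled Ccl3-/-, 3788 and 2368.5 on the wild-type CCL3 arrays, and 2767 and 3717 on the CCL3 arrays labelled Ccl3-/-. The carrier arrays labelled Ccl3-/- were the 2 lowest of the 8, and no other group overlapped them. The genotype difference after carrier was -1.16 ± 0.36 (SE) on the log2 scale, with a 95% confidence interval of -1.96 to -0.36. Its unadjusted p was 0.00886 and its adjusted p 0.375 in limma, and 11.4% of all tested probe sets had an unadjusted p under 0.05 in that comparison. Without carrier array 2 labelled Ccl3-/- the difference was -0.73. The brighter probe set gave 12429 and 11849 on the wild-type carrier arrays and 9717 and 7574 on the carrier arrays labelled Ccl3-/-, again without overlap, with a difference of -0.50 ± 0.24 and an adjusted p of 0.458. In mice labelled Ccl3-/-, CCL3 minus carrier was 0.92 ± 0.36 for the dimmer probe set, with an unadjusted p of 0.0278 and an adjusted p of 0.940, and 0.49 without carrier array 2. The same carrier arrays enter both comparisons, so the values are not independent. In wild-type mice CCL3 minus carrier was -0.33 ± 0.36 for it. The test of the difference between the genotypes gave 1.25 ± 0.50, with an adjusted p of 0.908, and 0.82 without carrier array 2 labelled Ccl3-/-. The brighter probe set gave smaller values. For it, CCL3 minus carrier was 0.37 ± 0.24 in mice labelled Ccl3-/- and -0.05 ± 0.24 in wild-type mice. Its difference between the genotypes was 0.42 ± 0.34, and none of these passed.

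**Figure D2:**
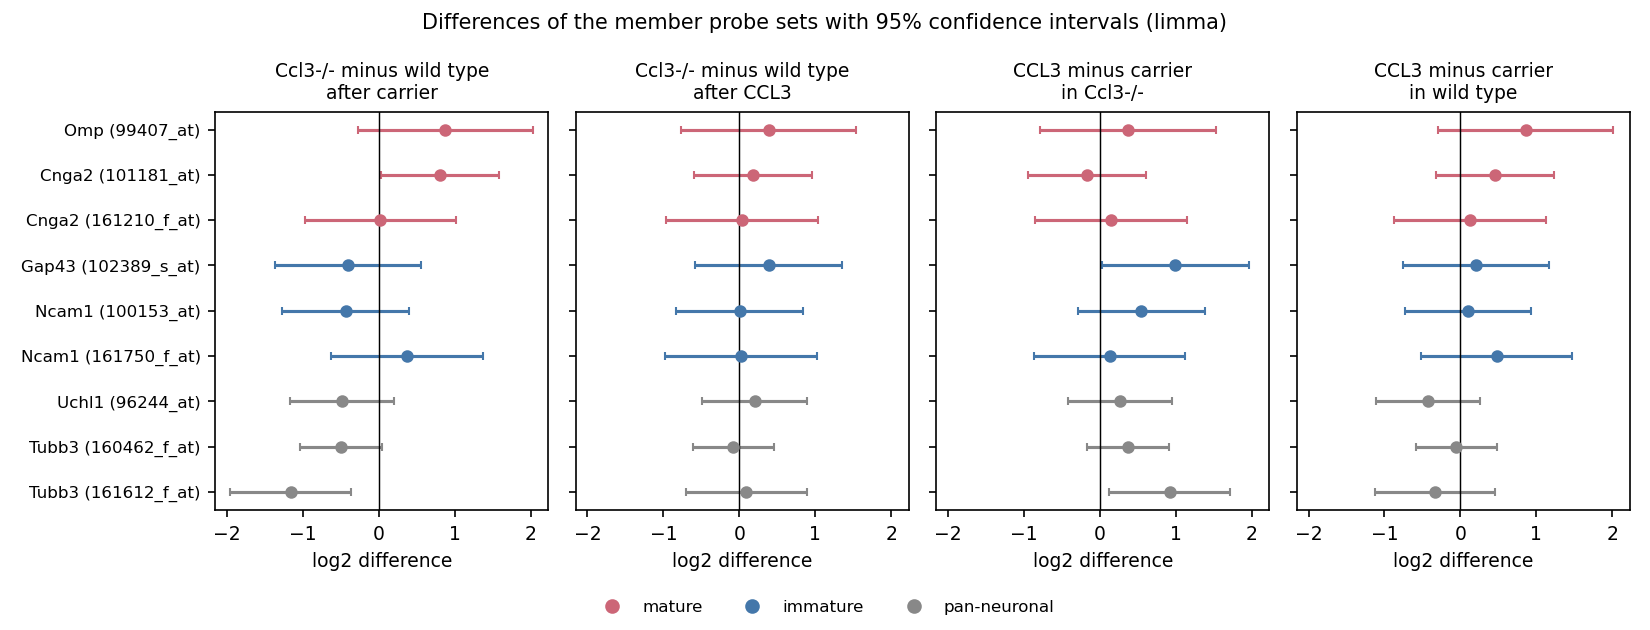
Log2 differences (x axis) of the 9 tested probe sets in the 4 comparisons of 2 groups, with bars for the 95% confidence interval of the limma fit. The interval of the dimmer Tubb3 probe set after carrier, -1.96 to -0.36, lies wholly below 0, and no point passed after adjustment over the 8150 probe sets.

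The members were then counted against the background of all tested probe sets. In the genotype comparison after carrier, 4 member probe sets were higher and 5 lower in the arrays labelled Ccl3-/-, with a median of -0.40 against -0.03 over all probe sets, and 4 of the 9 signs turned with an array left out. None passed, as 0% of all probe sets did, and 2 had an unadjusted p under 0.05, where the background was 11.4%. The groups did not overlap for 3 of the 9, the brighter Cnga2 probe set, higher, and the pair of lower Tubb3 probe sets, against 38.5% of all probe sets. The 9 probe sets thus showed no excess of separated groups over the array.

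In the genotype comparison after CCL3, 8 of the 9 were higher in the arrays labelled Ccl3-/-, as were 52.8% of all probe sets, with a median of 0.09 against 0.02 over all probe sets. The sign of 6 of the 9, both probe sets each of Cnga2, Ncam1 and Tubb3, turned with an array left out, and both Ncam1 signs also turned under another normalization. The largest of these differences was 0.39 for Omp. None passed (background 0%), none had an unadjusted p under 0.05 (background 1.48%), and 2 did not overlap, Omp and Gap43, both higher (background 29.4%). For CCL3 against carrier in mice labelled Ccl3-/-, 8 of the 9 were higher after CCL3, as were 54% of all probe sets, with a median of 0.37 against 0.03, and 5 of the 9 signs turned with an array left out. None passed (background 0%), 2 had an unadjusted p under 0.05, Gap43 and the dimmer Tubb3 probe set (background 4.90%), and 3 did not overlap, Gap43 and both Tubb3 probe sets, all higher (background 38.9%). The brighter Cnga2 probe set was the exception in sign, at -0.17 ± 0.35 (SE).

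For CCL3 against carrier in wild-type mice, 6 were higher and 3 lower, with a median of 0.13 against -0.02 over all probe sets, and 5 of the 9 signs turned with an array left out. None passed (background 0%), none had an unadjusted p under 0.05 (background 4.29%), and Uchl1 alone did not overlap (background 30.1%). In the interaction, none passed (background 0%) and only the dimmer Tubb3 probe set had an unadjusted p under 0.05, at 0.0326 (background 5.06%). For the genotypes averaged over both injections, none passed (background 0%), none had an unadjusted p under 0.05 (background 5.93%) and none separated the 4 arrays of each genotype (background 3.19%). The values nearest to the threshold there were Omp at 0.63 ± 0.37, the brighter Cnga2 probe set at 0.49 ± 0.25 and the dimmer Tubb3 probe set at -0.53 ± 0.25 (SE). The dimmer Cnga2 probe set was at 0.03 ± 0.32 and the brighter Tubb3 probe set at -0.29 ± 0.17. With single arrays left out, Omp ranged from 0.24 without wild-type carrier array 1 to 1.03 without array 2. Without carrier array 1 and then array 2 labelled Ccl3-/-, the brighter Cnga2 probe set was at 0.29 and 0.70. The dimmer Tubb3 probe set was then at -0.75 and -0.32. For the injections averaged over both genotypes, none passed (background 0%), none had an unadjusted p under 0.05 (background 4.53%) and none separated the injections (background 2.72%). Omp at 0.62 ± 0.37 and Gap43 at 0.60 ± 0.31 were the largest differences there, both higher after CCL3. Leaving out single arrays gave 0.22 to 1.01 for Omp and 0.26 to 0.95 for Gap43, each lowest without wild-type carrier array 1 and highest without array 2.

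The spread among the members was greatest between replicates of the carrier groups, which also correlated least over the array. After carrier, the correlation between replicates was 0.890 in wild-type mice and 0.930 in mice labelled Ccl3-/-. After CCL3 it was 0.949 and 0.965. The counts that follow were not made over all probe sets, so they do not show a trait particular to the members. For all 9 tested probe sets, the widest gap between a pair of replicates was found in a carrier group, with a median gap of 0.82 on the log2 scale in carrier groups and 0.39 in CCL3 groups. For 7 of the 9, that gap exceeded the whole range of the 4 group means, and the exceptions were the Tubb3 probe sets. Carrier array 2 labelled Ccl3-/- was the lowest array for 6 of the 9 and lay below the mean over the arrays for all 9. CCL3 array 2 labelled Ccl3-/- lay above that mean for all 9. Carrier array 1 labelled Ccl3-/- was the highest for Omp and both Cnga2 probe sets, and wild-type carrier array 1 was the lowest for Omp yet the highest for Uchl1 and both Tubb3 probe sets.

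To set immature against mature genes within an array, the mean log2 value of Gap43 and Ncam1 minus that of Omp and Cnga2 was taken for each array, from the brightest probe set of each gene, and centred on 0 over the 8 arrays. A positive value means relatively more signal of Gap43 and Ncam1, the genes taken here as immature. Ncam1 is described above for olfactory neurons without a stage, and how far it marks the immature stage was not tested. The index was 0.46 and 0.72 on the wild-type carrier arrays, -0.78 and -0.56 on the carrier arrays labelled Ccl3-/-, 0.28 and -0.11 on the wild-type CCL3 arrays, and 0.04 and -0.05 on the CCL3 arrays labelled Ccl3-/-. The carrier groups lay at the 2 ends and both CCL3 groups near 0 between them. The SD within groups, pooled over the 4 groups, was 0.19, below the 0.50 of the immature and the 0.47 of the mature mean taken alone. In each of the 4 groups, the array with the higher immature mean also had the higher mature mean.

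After carrier, the index was -1.26 between the genotypes, lower in the arrays labelled Ccl3-/-, made up of -0.42 for the immature and 0.84 for the mature genes. After CCL3 the genotypes differed by -0.09. CCL3 minus carrier was 0.67 in mice labelled Ccl3-/-, mostly from the immature genes at 0.77 with the mature genes at 0.10, and -0.51 in wild-type mice, mostly from the mature genes at 0.66 with the immature genes at 0.15. These comparisons share arrays, so the carrier values enter 3 of the 4 figures just given. No test was made, since the genes of the index were chosen with results of these arrays known. The genotype difference of the index after carrier ranged from -1.39 to -1.13 with single arrays left out. With Gap43 and Omp alone it was -1.28, from centred values of 0.75 and 0.55 on the wild-type carrier arrays and -0.94 and -0.32 on the carrier arrays labelled Ccl3-/-. The index difference was -0.95 where all probe sets of a gene were averaged, since the second Cnga2 and Ncam1 probe sets differed from the brightest ones.

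The index was set beside longer lists of genes named for these stages. Without the members, 10 olfactory transduction and mature neuron genes and 18 immature neuron and axon growth genes were measured above the filter. The 10 were Adcy3, Gnb1, Reep1, Camk2d, Ncam2, Rgs2, Ebf1, Ebf2, Ebf3 and Nrcam. Listed transduction genes such as Gnal, Cnga4, Cngb1, Ano2 and Gng13 had no probe set of their own. How far the 10 mark the mature stage was not tested. The same difference of means over the 18 and the 10 tested genes was 0.02 between the genotypes after carrier, against -1.26 for the 4 members. It was made up of -0.16 for the immature and -0.17 for the mature list. Per array it was -0.20 and 0.21 on the wild-type carrier arrays and -0.13 and 0.18 on the carrier arrays labelled Ccl3-/-, which overlap. The difference of Gap43 and Ncam1 from Omp and Cnga2 after carrier was thus not seen in the means of the other listed genes tested. These means used the brightest probe set of each gene. The Gnb1 probe sets disagreed in sign, as given below, so the mature mean depends on the one used. The result holds for these genes and probe sets alone and does not cover the transduction genes without a probe set. After CCL3, where the members differed by -0.09, the lists differed by 0.38. The values were -0.19 and -0.22 on the wild-type arrays and 0.18 and 0.18 on the arrays labelled Ccl3-/-, which do not overlap. Of all tested probe sets, 29.4% did not overlap in this comparison, and the list difference was not tested.

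**Figure D3:**
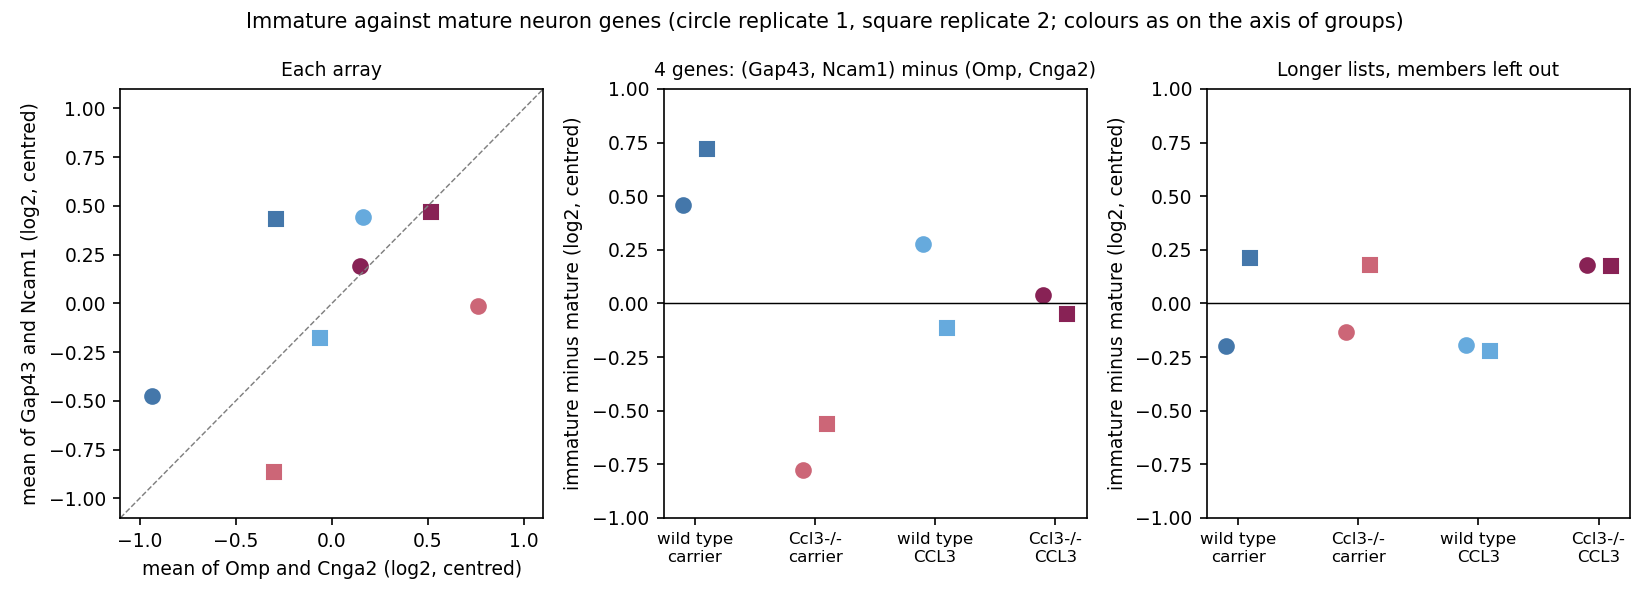
Left, the mean of Gap43 and Ncam1 (y axis) against that of Omp and Cnga2 (x axis) for each of the 8 arrays, in log2 units centred on 0, with a dashed line where both are equal; centre, their difference by group; right, the same difference from the longer lists without the members. In the centre the wild-type carrier arrays lie at 0.46 and 0.72 and the carrier arrays labelled Ccl3-/- at -0.78 and -0.56. On the right the carrier groups overlap and the CCL3 groups do not (29.4% of all tested probe sets did not overlap after CCL3).

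Of 30 listed olfactory transduction and mature neuron genes, members included, 12 were tested, and after carrier 5 were higher and 7 lower in the arrays labelled Ccl3-/-, with a median of -0.33 against -0.03 over all probe sets. None passed. Rgs2, a regulator of G protein signalling, was 1.09 ± 0.34 (SE) higher with an adjusted p of 0.375 in limma, and the range was 0.88 to 1.30 with single arrays left out. The 3 tested probe sets of Gnb1, a G protein beta subunit, disagreed. The brightest was at -0.90 ± 0.44, with -0.41 without wild-type carrier array 1 and -1.40 without array 2. Another was at 1.18 ± 0.32 with the groups apart in the other direction (background 38.5%), and the last at -0.14 ± 0.35. The latter 2 were added after their values were seen. Adcy3, the adenylyl cyclase that makes the cyclic AMP for the Cnga2 channel, was at -1.04 ± 0.61. This value was -0.10 without wild-type carrier array 1, -0.22 without carrier array 2 labelled Ccl3-/-, -1.86 without array 1 of that label and -1.99 without wild-type carrier array 2. Its intensity was 10133 and 2673 on the wild-type carrier arrays and 4470 and 1364 on the carrier arrays labelled Ccl3-/-, so the array with the lowest Omp had the highest Adcy3.

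Of 30 listed immature neuron and axon growth genes, 21 were tested, the members Gap43, Ncam1 and Tubb3 included. After carrier 6 were higher and 15 lower in the arrays labelled Ccl3-/-, with a median of -0.28. None passed. Marcksl1, a binder of actin and calmodulin, was at -0.68 ± 0.25 (SE) with an adjusted p of 0.404 in limma, and in mice labelled Ccl3-/- it was 0.73 ± 0.25 higher after CCL3 than after carrier, with an adjusted p of 0.940. Dpysl3, which acts in axon guidance, was at 1.42 ± 0.75 after carrier, with 0.72 without wild-type carrier array 1 and 2.15 without array 2. Dcx, a microtubule protein of young neurons, was at -0.51 ± 0.55, Stmn1, which destabilises microtubules, at -0.16 ± 0.45, and its relative Stmn2 at 0.42 ± 0.54. The signs of the last 3 turned when single arrays were left out. In the other comparisons the medians of the mature and immature lists were -0.07 and 0.11 for the genotypes after CCL3, 0.16 and 0.08 for CCL3 in mice labelled Ccl3-/-, and 0.03 and -0.05 for CCL3 in wild-type mice, with no gene passing. In the last of these, 16 of the 21 immature genes were lower after CCL3.

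The 23 tested genes of 28 listed as pan-neuronal had a median of -0.35 after carrier, with 7 higher and 16 lower and none passing. They include the members Uchl1 and Tubb3, and Tubb3 is also on the immature list. On carrier array 2 labelled Ccl3-/-, 22 of the 23 lay below their own mean. Of 9 tested neuronal precursor genes, 8 were lower in the carrier arrays labelled Ccl3-/- than in the wild-type carrier arrays, with a median of -0.69. In limma, 5 of the 9 had an unadjusted p under 0.05, all lower (background 11.4% in either direction). Neurog1, which was lower and is among these 5, exceeded the filter intensity of 362.7 only on wild-type arrays. Its direction is therefore not read as a result. None passed. Neurod1, a transcription factor of precursors about to become neurons, was named for the smallest p of its list. It gave 515.6 and 959.9 on the wild-type carrier arrays and 146.9 and 187.9 on the carrier arrays labelled Ccl3-/-, without overlap (background 38.5%). Both values labelled Ccl3-/- lay below the filter intensity of 362.7, so the size of the difference is uncertain. The difference was -1.59 ± 0.35 (SE) with an adjusted p of 0.363 in limma. In mice labelled Ccl3-/-, 7 of the 9 precursor genes were higher after CCL3 than after carrier, with a median of 0.40 against 0.03 over all probe sets. In wild-type mice 1 was higher and 8 were lower after CCL3, with a median of -0.39 against -0.02, and no test of the difference between the genotypes was made for the list.

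Markers of other cells that mucosa can hold were read beside the members. After carrier, the median genotype difference was 0.05 over 8 sustentacular genes, -0.01 over 10 genes of olfactory ensheathing and Schwann glia, -0.12 over 8 skeletal muscle genes and -0.23 over 4 genes of ciliated respiratory epithelium. Only 2 of 11 listed genes of trigeminal and autonomic nerves were tested, Scn9a and Isl1, and both were higher in the carrier arrays labelled Ccl3-/-, with a median of 1.35. On the wild-type carrier arrays both lay below the filter intensity of 362.7. The values there were 53.7 and 216.7 for Scn9a and 266.7 and 105 for Isl1. Scn9a exceeded the filter only on arrays labelled Ccl3-/-, so it was tested only through the label where it was high. Neither direction is therefore read as a result. The summed intensity of these 2 genes was 320.4 and 321.7 on the wild-type carrier arrays and 1101 and 1148 on the carrier arrays labelled Ccl3-/-. No gene of these lists passed, and their part in the member values was not tested.

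**Figure D4:**
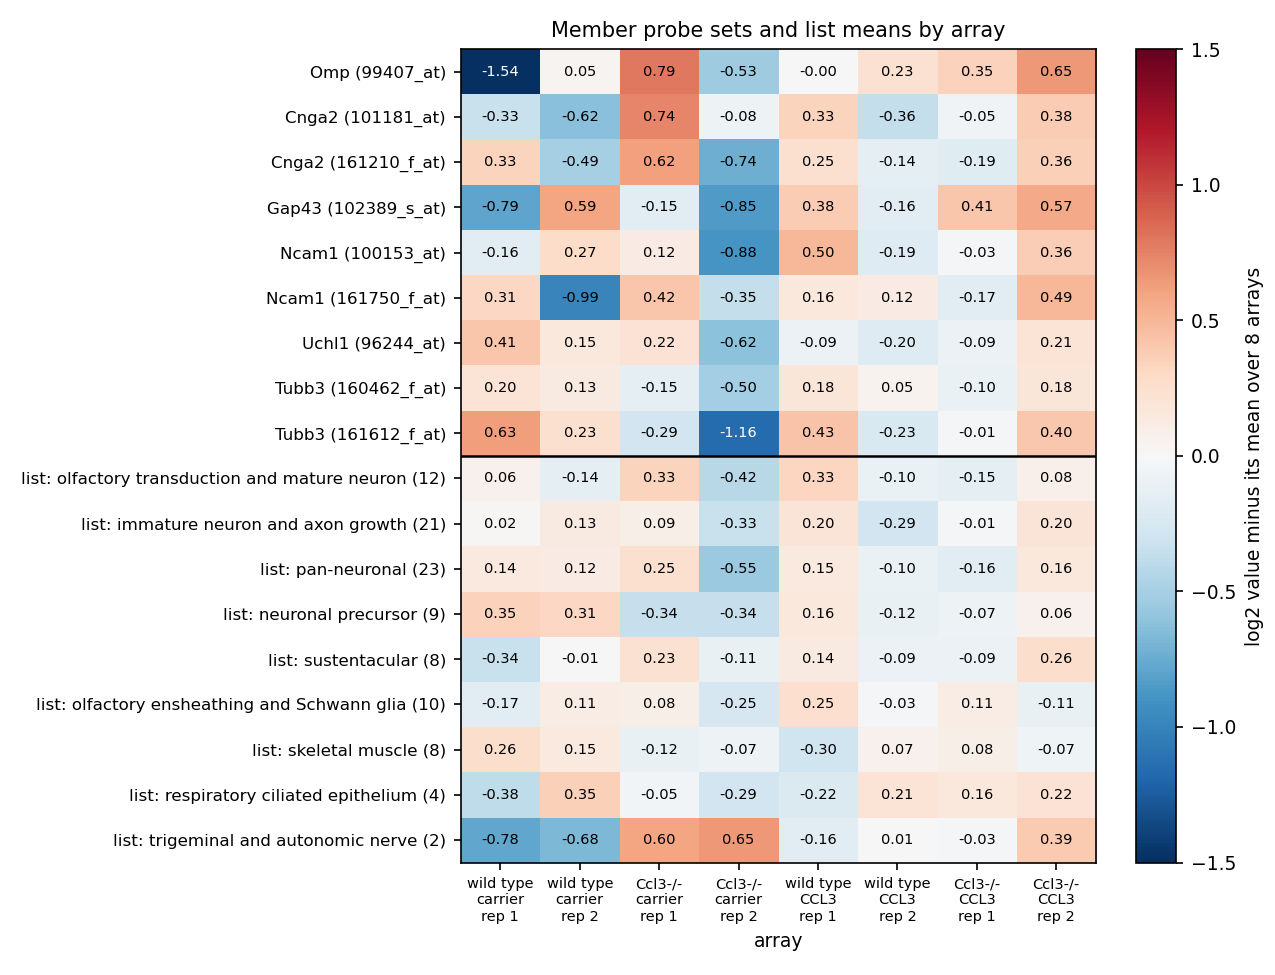
Log2 value minus its own mean over the 8 arrays (colour scale and printed values) for each tested member probe set, above the line, and the mean of the tested genes of each list, below it with the number of genes in brackets; columns are arrays by group. Carrier array 2 labelled Ccl3-/- is below the mean for all 9 member probe sets and CCL3 array 2 labelled Ccl3-/- is above it for all 9.

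By Pearson's r over the 8 arrays on the log2 scale, among 7356 tested probe sets of other named genes, those most like Omp were Nacc2 at 0.98, Mgst3 at 0.96 and Gas8 at 0.96. Spearman's rho was 0.86, 0.86 and 0.93 for these. Without the 2 arrays farthest from the median of Omp, r was 0.90 for Nacc2, 0.70 for Mgst3 and 0.62 for Gas8, so the last 2 likenesses rested in part on wild-type carrier array 1 and carrier array 2 labelled Ccl3-/-. Those most like Gap43 were Sec14l2 at 0.98, AU021092 at 0.98 and Osbpl1a at 0.96, with rho of 0.95, 0.93 and 0.88, and r was 0.94, 0.96 and 0.87 without the same 2 arrays. In all, 34 probe sets had r above 0.9 with Omp and 32 with Gap43, and all points share the same arrays, so these are descriptions with no test.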

How the data were processed

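Total RNA of mouse olfactory mucosa was hybridised to 8 single-colour arrays, 2 in each of 4 groups named by the titles. For every probe set and array the authors deposited a processed intensity on a linear scale, by software not given in the sources used here. Means trimmed by 2% at each end lay within 0.00834% of each other, so they had been scaled before deposit and no normalization was added. The medians per array were 581.4 to 660.3. The platform annotation gave 1 symbol for 10855 of 12488 probe sets, several for 396 and none for 1237. For 16 gene IDs the GRCm38.p6 RefSeq table held no entry.

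Values were analysed as log2(value + 102.3), the 20th percentile of the table, which understates differences of dim probe sets. The 66 control probe sets were not tested. limma 3.58.1 in R 4.3.3 fitted all 4 groups together, with an intensity trend, 4 residual degrees of freedom, and Benjamini-Hochberg adjustment over 8150 probe sets. The 7 comparisons were the genotypes after each injection, CCL3 against carrier in each genotype, the interaction of both, and both averages. The number of arrays limits the precision. The 6 members, the 9 gene lists and the index were chosen with earlier results of these data known. All probe sets of the members are given. From the lists, the text names genes with the smallest p in a direction, plus Adcy3, Dcx, Stmn1 and Stmn2, and for likeness the 3 highest r for Omp and for Gap43. Lists used the brightest probe set of a gene.

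Same-numbered arrays of different groups had correlations of their deviations from -0.16 to 0.18, so no pairing by number was seen. With 2 arrays a group, this cannot exclude a shared batch behind the numbers. The fit was tested on simulated data. Alternatives were other normalizations, pseudocounts and filters, no trend, a replicate block, only the groups compared, other choices of index genes, and each array left out, which leaves a group of 1 array assumed to vary like the others. Figures were drawn with matplotlib 3.10.9.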

Additional observations from a re-analysis of the deposited data

How the results depend on the processing

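No member probe set passed in any of the 7 comparisons under any alternative run. Among all 8150 probe sets, where 0 passed, the replicate block gave 1 for the genotypes after carrier, 1 for the genotype average and 1 for the CCL3 average, and fitting only the groups compared gave 1 for the genotypes after CCL3. The replicate block changed no member call. With single arrays left out the counts were 0 to 113 for the genotypes after carrier, 0 to 74 for CCL3 in wild-type mice, 0 to 20 for the CCL3 average and 0 to 6 for the genotype average, each highest without wild-type carrier array 2. They were 0 to 1 for the genotypes after CCL3, with 1 without either carrier array labelled Ccl3-/-, and 0 to 1 for CCL3 in mice labelled Ccl3-/-, with 1 without carrier array 1 of that label. The genotype average also gave 1 without carrier array 2 of that label. The cause was not tested.

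The index was -0.95 after carrier, 0.44 for CCL3 in mice labelled Ccl3-/- and 0.83 for the interaction with all probe sets of a gene averaged. From the longer lists without the members, an alternative chosen after seeing the data, it was 0.018 after carrier, 0.38 after CCL3, 0.15 for CCL3 in mice labelled Ccl3-/-, -0.21 for CCL3 in wild-type mice, 0.37 for the interaction and 0.20 for the genotype average. These lists hold other genes. With single arrays left out it was -0.28 to 0.11 after CCL3, -0.70 to -0.31 for CCL3 in wild-type mice, nearest to 0 without wild-type CCL3 array 2, and 0.98 to 1.37 for the interaction.

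Among the genotype differences after CCL3, the brightest Ncam1 probe set turned to -0.0017 with cyclic loess, and the _f_at one to -0.0051 with quantile normalization and -0.0075 with cyclic loess. Signs that turned when an array was left out had these ranges. For the genotypes after carrier, they were -0.66 to 0.70 for the dimmer Cnga2 probe set, -1.09 to 0.29 for Gap43, -0.94 to 0.065 for the brightest Ncam1 probe set, -0.28 to 1.02 for its _f_at one, -0.56 to 0.29 for the dimmest Gnb1 probe set, -1.55 to 0.54 for Dcx, -0.97 to 0.66 for Stmn1 and -0.051 to 0.89 for Stmn2. For the genotypes after CCL3, they were -0.17 to 0.52 and -0.24 to 0.30 for the brighter and the dimmer Cnga2 probe set, -0.34 to 0.35 and -0.31 to 0.35 for the same Ncam1 probe sets, and -0.21 to 0.062 and -0.23 to 0.42 for the brighter and the dimmer Tubb3 probe set. For CCL3 in mice labelled Ccl3-/-, they were -0.29 to 1.03 for Omp, -0.57 to 0.24 and -0.53 to 0.82 for the brighter and the dimmer Cnga2 probe set, -0.26 to 0.52 for the _f_at Ncam1 probe set and -0.16 to 0.68 for Uchl1. For CCL3 in wild-type mice, they were -0.28 to 0.55 for the dimmer Cnga2 probe set, -0.48 to 0.90 for Gap43, -0.25 to 0.45 and -0.17 to 1.13 for the brightest and the _f_at Ncam1 probe set, and -0.11 to 0.013 for the brighter Tubb3 probe set.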
